A study of Peromyscus californicus with 17 samples.

Results

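The 9 T cell genes considered here encode the CD3 chains of the T cell receptor complex (Cd3e, Cd3d and Cd3g), the co-receptors Cd4 and Cd8a, the kinase Lck, the co-stimulatory receptor Cd28, the adhesion receptor Cd2 and Cd5, which tunes receptor signalling. They were chosen by symbol, and 6 of the 9, among 27786 genes in the table, were analysed: Cd4, Cd8a, Lck, Cd28, Cd2 and Cd5. Cd3e, Cd3d and Cd3g were not analysed here.

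A T cell recognises a peptide held by a major histocompatibility complex molecule through its receptor, whose signal is carried into the cell by the CD3 chains. Cd4 and Cd8 bind the class II and class I molecules, respectively, and bring Lck to the receptor, where it phosphorylates CD3. The lung holds resident and circulating T cells, and whole-lung RNA contains their transcripts alongside those of epithelium, vessels, macrophages and B cells.

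Lung RNA of 17 male *Peromyscus californicus*, a monogamous mouse species, was sequenced with 1 library per animal. The animals were genetically diverse males of stock IS, 12 to 15 months old, and differed in bonding history: 6 were bonded (B1 to B6), 6 bond-disrupted (BD1 to BD6) and 5 virgin (V2 to V6). Bonded males had lived with a female for 4 months and were still paired at collection. Bond-disrupted males had been paired for 4 months too, but were separated from the female, and their lungs were collected on day 7 of the separation. Their housing after separation is not given. In its serum experiment the study kept bond-disrupted animals alone, so losing the partner and living alone cannot be told apart here. Virgins were of similar age and lived in groups, 3 to a cage by the labels and the study's methods and 2 or 3 by its results, so that bonding history and cage mates cannot be told apart between virgins and the other groups. Animals with the same number come from the same family, mostly brothers, with 2 of the virgins, V3 among them, being cousins of their counterparts.

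Values were deposited as FPKM, fragments per 1000 bases of gene per 1000000 fragments, but each of the 17 columns had been divided by the length of another gene, the divisor moving by 1 row per column. Reads and lengths were therefore recovered from the table, anchored on annotated lengths of small RNA genes. Every gene was then divided by its own length. The step matters for these genes: as deposited, Cd28 spanned 0.067 to 55.1 FPKM over the animals, and with its own length 0.802 to 4.60 FPKM. Across 12462 well-covered genes the median SD of log2 values between animals was 1.40 as deposited and 0.184 with own lengths. All values below use own lengths, and log2 values are log2(FPKM + 1), which understates the change of low genes. The libraries held, in units of 1000000 reads, 15.4 to 34.1 counted reads in bonded, 21.9 to 29.7 in bond-disrupted and 19.0 to 22.4 in virgin animals. The scale of these depths, and of every read number, rests on taking the smallest step in the table as 0.5 of a read; FPKM do not depend on it. Lung tissue was present throughout: 9 lung markers summed to 76980 FPKM or more in every library. The largest of them was the airway gene Scgb1a1 (49000 to 172000 FPKM), followed by the surfactant gene Sftpc (12000 to 28000 FPKM).

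**Figure D1:**
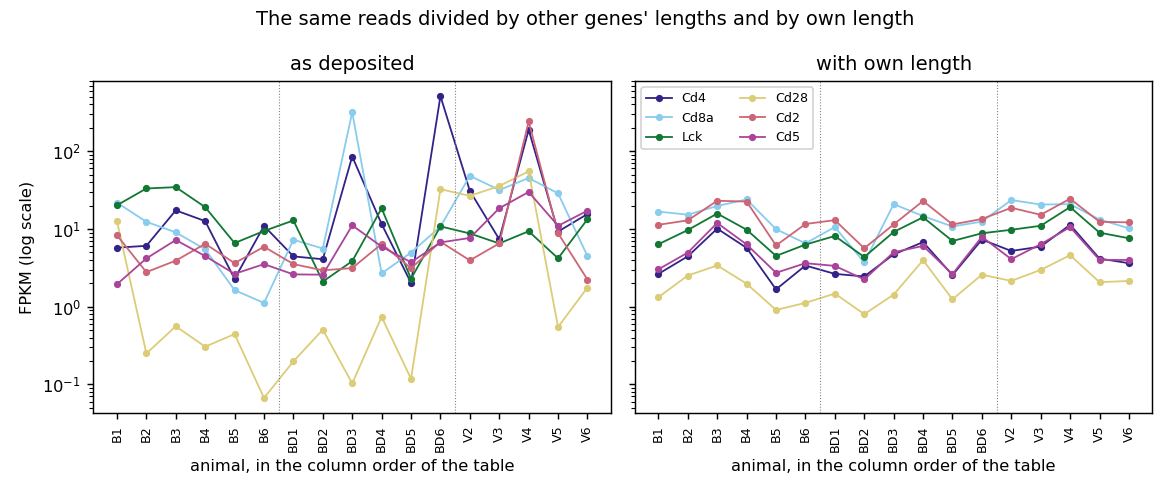
FPKM of the 6 T cell genes in each of the 17 animals on a log scale, as deposited (left) and with own lengths (right). Dotted lines separate bonded, bond-disrupted and virgin animals. Cd4 reaches 512 FPKM as deposited and 11.3 with its own length.

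The 2 co-receptors differed in level. Cd8a had a median of 14.6 FPKM over the 17 animals and Cd4 one of 4.45. In every animal Cd4 lay below Cd8a, with a ratio per length from 0.158 in B1 to 0.661 in BD2. In the order of levels by median, Cd8a was followed by Cd2 (12.9 FPKM), Lck (8.97), Cd4 (4.45), Cd5 (4.09) and Cd28 (2.07). Cd8a and Cd2 were not separated, Cd8a being the higher in 8 of 17 animals, and neither were Cd4 and Cd5, with Cd4 the higher in 5 of 17. Cd2 exceeded Lck, Lck exceeded Cd4 and Cd5 exceeded Cd28 in 17 of 17 animals. In bulk tissue, here and in all results that follow, fewer T cells and less RNA per T cell cannot be told apart.

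Cd4 ranged from 1.67 to 10.1 FPKM in bonded animals (median 3.92; mean 4.66 ± 3.01, SD, n = 6) and from 2.45 to 7.30 in bond-disrupted animals (median 3.68; mean 4.41 ± 2.21, n = 6). The 5 virgins had 5.21, 5.94, 11.3, 4.16 and 3.63 FPKM (V2 to V6; mean 6.05 ± 3.08, n = 5). V4 and B3 were the highest animals and B5 the lowest, and the groups overlapped. Reads of Cd4 included shared ones in at least 9 animals, those whose total ends in 0.5 of a read, and the gene overlaps the long non-coding RNA LOC128098520 in the annotation, so a part of its level is uncertain.

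Cd8a, the alpha chain of the CD8 co-receptor, ranged from 6.53 to 24.0 FPKM in bonded animals (median 16.0; mean 15.4 ± 6.37, SD, n = 6). Bond-disrupted animals had 3.71 to 20.9 FPKM (median 11.6; mean 12.2 ± 5.63, n = 6), and the virgins 23.5, 20.6, 20.8, 13.2 and 10.2 FPKM (V2 to V6; mean 17.7 ± 5.67, n = 5). BD2 stood lowest of all, 5 of 6 bond-disrupted animals lay under the bonded median, and the groups overlapped. The beta chain, Cd8b, stood at 16.6% to 46.7% of the Cd8a level of the same animal. Group medians of this ratio were 29.6% in bonded, 38.2% in bond-disrupted and 27.8% in virgin animals.

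Lck is the kinase that starts signalling at the receptor. Its level was 4.50 to 15.8 FPKM in bonded animals (median 8.02; mean 8.74 ± 4.03, SD, n = 6) and 4.36 to 14.1 in bond-disrupted animals (median 8.46; mean 8.60 ± 3.22, n = 6). Virgins had 9.76, 11.0, 19.1, 8.97 and 7.59 FPKM (V2 to V6; mean 11.3 ± 4.55, n = 5). The ends of the range were again V4, with B3 and BD4 behind it, and BD2 with B5, and the groups overlapped. Lck overlaps the long non-coding RNAs LOC128097350 and LOC128097349 and had shared reads in at least 8 animals, counted the same way.

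Cd28, the receptor for Cd80 and Cd86 that gives the T cell its second signal, was the lowest of the 6 and rests on 16 to 120 reads per animal. Bonded animals had 0.909 to 3.39 FPKM (median 1.65; mean 1.87 ± 0.953, SD, n = 6), and bond-disrupted animals 0.802 to 3.97 (median 1.45; mean 1.92 ± 1.16, n = 6). Virgins had 2.15, 2.97, 4.60, 2.07 and 2.14 FPKM (V2 to V6; mean 2.79 ± 1.08, n = 5). All 5 virgins lay above the median of each other group, but B2, B3, BD4 and BD6 were also above several virgins, so that the groups overlapped.

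Cd2 binds Cd48 on neighbouring cells in rodents. It ranged from 6.13 to 23.1 FPKM in bonded animals (median 12.3; mean 14.6 ± 6.77, SD, n = 6) and from 5.64 to 22.9 in bond-disrupted animals (median 12.2; mean 13.0 ± 5.61, n = 6). The virgins held 18.7, 15.2, 24.5, 12.4 and 12.2 FPKM (V2 to V6; mean 16.6 ± 5.15, n = 5). V4, B3, BD4 and B4 formed the upper end, and each group was represented there.

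Cd5 had 2.73 to 11.9 FPKM in bonded animals (median 4.30; mean 5.44 ± 3.46, SD, n = 6) and 2.24 to 7.93 in bond-disrupted animals (median 4.18; mean 4.54 ± 2.21, n = 6). Virgin values were 4.09, 6.37, 10.6, 4.00 and 3.99 FPKM (V2 to V6; mean 5.80 ± 2.85, n = 5). B3 and V4 were above the rest and the other animals of all groups were intermingled.

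**Figure D2:**
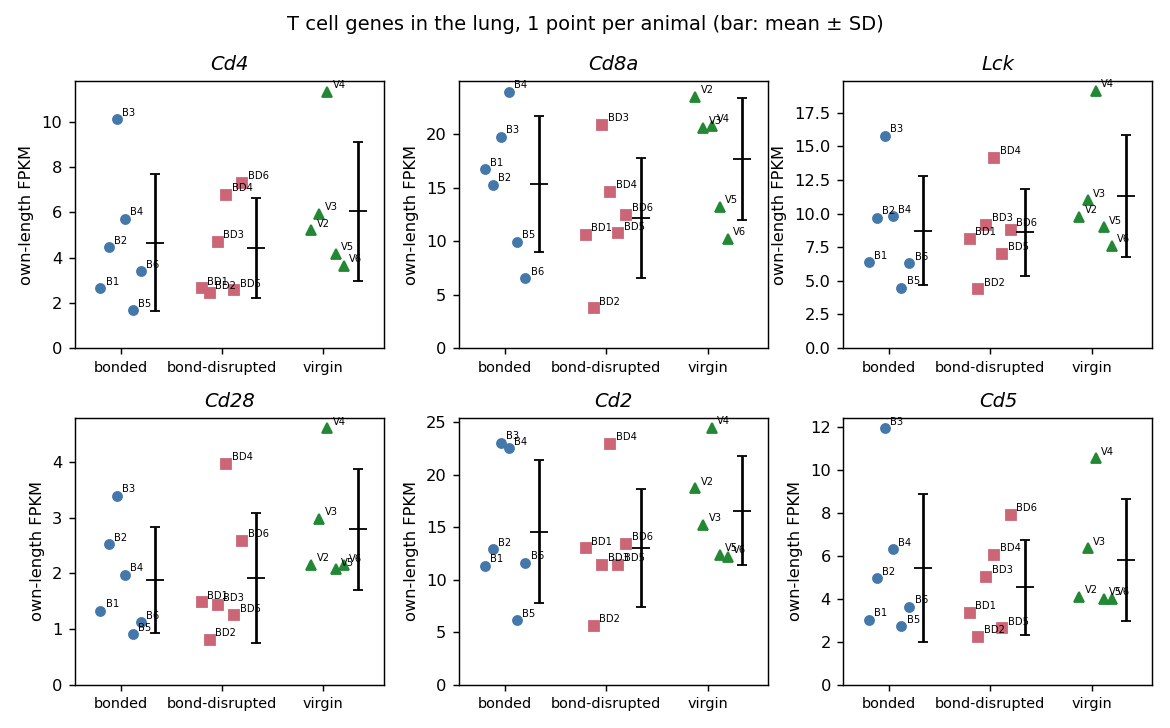
Own-length FPKM of the 6 genes, 1 point per animal with its name, and the mean ± SD of each group as a black bar (bonded n = 6, bond-disrupted n = 6, virgin n = 5). The groups overlap in each panel, and V4, B3 and BD4 recur at the top.

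Whether bonding history was accompanied by a change in these genes was tested with limma on 14882 genes, with Benjamini-Hochberg adjustment over all of them a gene being called where its adjusted p was under 0.1 and its change 2-fold or more. The 3 comparisons share groups and are not independent of each other. In bond-disrupted against bonded animals, 0 of 6 T cell genes were called, beside a background of 0% of all genes (0 of 14882, limma). Of all genes, 871 had an unadjusted p under 0.05 by limma, and voom on the recovered reads also called 0. At an unadjusted p under 0.05, 0 of the 6 were higher (background 2.84%) and 0 lower (background 3.02%). Between bond-disrupted and bonded animals the log2 difference was −0.01 for Cd4 (95% interval −0.72 to 0.70), 0.01 for Lck (−0.58 to 0.59) and 0.00 for Cd28 (−0.53 to 0.53). It was −0.14 for Cd2 (−0.79 to 0.52), −0.17 for Cd5 (−0.85 to 0.51) and −0.34 for Cd8a (−1.07 to 0.38). The intervals thus span 0 and, on this log2(FPKM + 1) scale, reach 2-fold only for a lower Cd8a. On recovered reads with voom, differences and errors were larger, such as −0.36 ± 0.41 (SE) for Cd5 and −0.14 ± 0.44 for Cd4. By limma, adjusted p ranged from 0.895 to 1. Leaving out 1 animal at a time moved the Cd8a difference from −0.55 without B6 to −0.07 without BD2.

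Virgins had higher mean log2 levels than bonded animals for each of the 6 genes, with none past the test. Of all genes tested, 52.3% were higher in virgins too. The 6 genes vary together across animals, so their shared direction is not 6 independent observations. The log2 difference was 0.42 for Cd28 (95% interval −0.14 to 0.98), 0.38 for Cd4 (−0.37 to 1.13), 0.36 for Lck (−0.25 to 0.98), 0.25 for Cd2 (−0.43 to 0.93), 0.24 for Cd8a (−0.52 to 1.00) and 0.14 for Cd5 (−0.58 to 0.85). Their median of 0.31 stood beside 0.01 for all genes tested. By limma, unadjusted p ranged from 0.129 to 0.691 and adjusted p was 1 for each. The count of genes called was 0 of 6 (background 0%; over all genes limma had 528 at an unadjusted p under 0.05 and voom called 0). At an unadjusted p under 0.05, 0 of 6 were higher and 0 lower, beside backgrounds of 2.09% and 1.46%. Leaving out 1 animal moved each difference by over 1.5 times. The smallest values came without V4 for Cd28 (0.27), Cd4 (0.16), Lck (0.17) and Cd5 (−0.08), without B5 for Cd2 (0.05) and without B6 for Cd8a (0.04). The largest came without B3 for Cd28 (0.56), Cd4 (0.60), Lck (0.54), Cd2 (0.40) and Cd5 (0.37) and without V6 for Cd8a (0.41). Without B3 the unadjusted p of Cd28 was under 0.05 by limma, though it was not called.

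Virgins against bond-disrupted animals gave the largest differences of the 3 comparisons for Cd8a, Cd4, Cd2 and Cd5, none past the test. The log2 difference was 0.58 for Cd8a (95% interval −0.18 to 1.34), 0.42 for Cd28 (−0.14 to 0.98), 0.39 for Cd4 (−0.36 to 1.14), 0.38 for Cd2 (−0.30 to 1.07), 0.36 for Lck (−0.26 to 0.97) and 0.31 for Cd5 (−0.41 to 1.02). Their median was 0.39, beside 0.005 for all genes tested. By limma, unadjusted p lay between 0.125 and 0.377 and adjusted p at 0.943 or 0.944. Again 0 of 6 were called (background 0%; limma had 640 genes at an unadjusted p under 0.05 and voom called 0), and 0 were higher (background 2.21%) or lower (background 2.09%) at an unadjusted p under 0.05. Leaving out 1 animal, the smallest values came without V4 for Cd28 (0.27), Cd4 (0.17), Lck (0.16) and Cd5 (0.09) and without BD2 for Cd8a (0.31) and Cd2 (0.19). The largest came without BD4 for Cd28 (0.59), Cd2 (0.558) and Lck (0.503), without BD6 for Cd4 (0.535) and Cd5 (0.463) and without BD3 for Cd8a (0.755). Without BD4 the unadjusted p of Cd28 was under 0.05 by limma, with an adjusted p of 0.901.

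Each gene was also compared by a two-sided exact permutation test over animals. Over the 18 tests the raw p ranged from 0.141, for Cd28 between virgin and bonded animals, to 1, with Benjamini-Hochberg values from 0.751 to 1. The smallest p these group sizes allow is 0.00216. In 0 of the 18 tests were the groups apart.

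**Figure D3:**
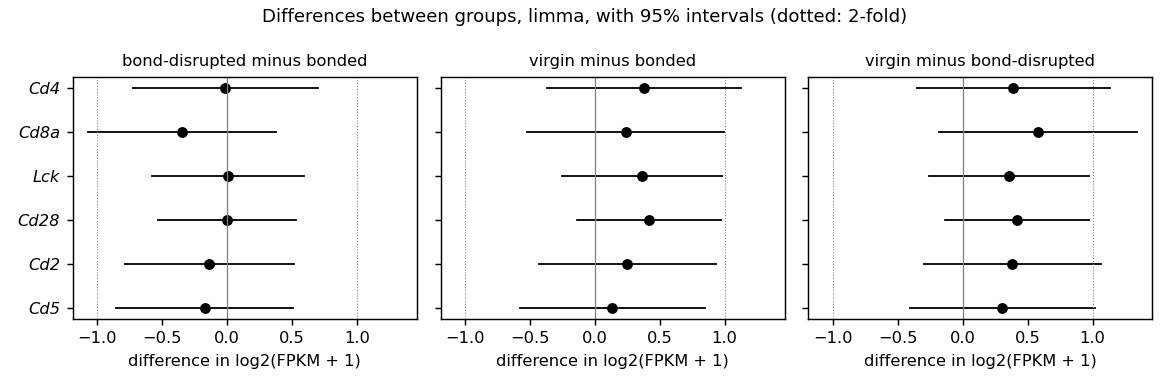
Difference in mean log2(FPKM + 1) for each gene and comparison (points) with 95% intervals from limma (lines). All 18 intervals cross 0, and dotted lines mark a 2-fold difference in either direction.

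The spread between animals was wide. The SD of log2 values within groups was 0.46 for Cd28, 0.51 for Lck, 0.57 for Cd2, 0.60 for Cd5, 0.63 for Cd4 and 0.64 for Cd8a, beside a median of 0.21 over the 14882 genes tested. The added 1 narrows the SD of low genes, so the order of the 6 depends on the scale: the coefficient of variation of FPKM over the 17 animals was 54.1% for Cd4, 52.7% for Cd5, 50.2% for Cd28, 41.1% for Lck, 40.2% for Cd8a and 39.3% for Cd2. Of the genes tested, on the log2(FPKM + 1) scale, 88.8% (against Cd28) to 95.7% (against Cd8a) had a smaller SD. Summed over the 6 genes, the level ran from 19.2 FPKM in BD2 to 90.9 FPKM in V4. Group medians of this sum were 45.6 in bonded, 45.8 in bond-disrupted and 62.1 FPKM in virgin animals.

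Animals high in one T cell gene were high in the others. Over 17 animals and 15 pairs of genes, Pearson r of log2 levels ranged from 0.614 to 0.959 (median 0.842; permutation p 1e-05 to 0.0079, Benjamini-Hochberg 2.5e-05 to 0.0079), and 1e-05 is the smallest p the permutations can give. Spearman rho ranged from 0.537 to 0.975 (permutation p 1e-05 to 0.0281, Benjamini-Hochberg 1.87e-05 to 0.0281). With the group means removed r was 0.582 to 0.971, within the bonded animals 0.591 to 0.983, and within the bond-disrupted animals 0.551 to 0.971. Without the 2 animals farthest from the median it was 0.421 to 0.963. All values share the same libraries and the same scaling.

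Cd4 and Cd5 were the most alike pair (r = 0.959, rho = 0.975, permutation p 1e-05 for both), and kept r = 0.963 without V4 and B5. Lck followed Cd28 (r = 0.939), Cd4 (0.919) and Cd2 (0.916). Cd8a stood apart, with r from 0.614 (Cd28) to 0.744 (Cd2). With group means removed it had r = 0.672 with the mean of the other 5 genes, while each of those had 0.894 or more with the mean of its own other 5. Standardised over the 17 animals, Cd8a was above the other 5 genes in 5 animals (B1, B5, BD3, V2 and V3) and below them in 7, among them V4, B3 and BD4, where the other genes were highest. In B1, for example, Cd8a was at 0.43 and the other 5 genes were between −0.96 and −0.44.

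**Figure D4:**
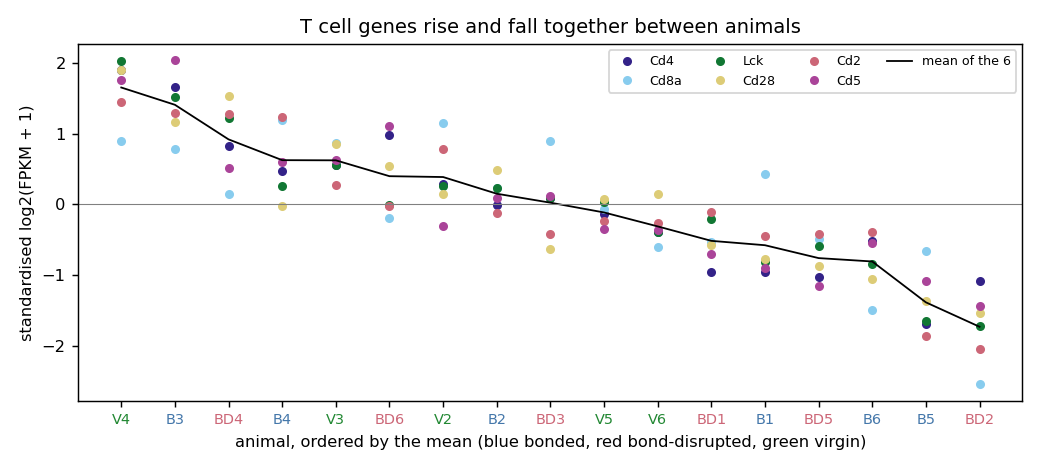
Level of each of the 6 genes in each animal, as log2(FPKM + 1) standardised over the 17 animals (points), and their mean (line), with animals ordered by that mean. V4 (1.65) and B3 (1.41) lie at the top, B5 (−1.38) and BD2 (−1.73) at the bottom, and the groups are mixed along the order.

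Depth moved with the mean standardised level of the 6 genes at r = 0.376 over the 17 animals and at −0.056 over 15, without the 2 libraries farthest from the median depth; its part in the levels was not tested. In units of 1000000 reads the highest animals, V4 and B3, had 20.7 and 34.1, and the lowest, BD2 and B5, had 22.0 and 17.3. Families were compared by the mean standardised deviation of the 6 genes from the group means. The relatives of 4 of the 6 families lay on 1 side: B3, BD3 and V3 (1.59, 0.32 and 0.19) and B4, BD4 and V4 (0.76, 1.27 and 1.27) were above their group means. B5, BD5 and V5 (−1.36, −0.51 and −0.59) and B1 and BD1 (−0.50 and −0.25) were below. Families 2 and 6 were split, BD2 being the lowest of all with −1.54. Whether relatives resemble each other in these genes was not tested.

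Among 13305 other genes with a mean of at least 1 FPKM, the 5 whose deviations from the group means were most like the mean of the T cell genes over the 17 animals were Ikzf1 (r = 0.966), a transcription factor of lymphocytes, Il27ra (0.966), a cytokine receptor subunit, Itgb7 (0.965), an integrin of lymphocytes, Slamf6 (0.964), a receptor of T, B and natural killer cells, and LOC128114091 (0.956), an unnamed protein-coding gene between Tmem131 and CUNH2orf92. Ikzf1 spanned 4.29 FPKM in BD2 to 14.7 in V4, and Itgb7 6.07 in BD2 to 26.8 in B3. Of all 13305 genes 9.78% had r above 0.5.

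The pathway downstream of the receptor was followed in a list of 39 signalling genes, of which 34 could be tested. None was called in any comparison. At an unadjusted p under 0.05, 1 of the 34 (2.94%) was higher in bond-disrupted than in bonded animals, a share near the background of 2.84%, and 0 of the 34 were higher or lower in the virgin comparisons. That gene was Fyn, a kinase related to Lck (27.2 against 23.1 FPKM, log2 difference 0.23 ± 0.11 (SE), unadjusted p 0.0474, limma adjusted p 0.85). Between virgin and bond-disrupted animals the lowest unadjusted p by limma was 0.0694 for Themis, a T cell signalling protein (1.75 against 1.09 FPKM). The list's median log2 difference was 0.02 for bond-disrupted against bonded, 0.12 for virgin against bonded and 0.15 for virgin against bond-disrupted. In the direction of the difference alone, with no test passed, 19 of the 34 (55.9%) were higher in bond-disrupted than in bonded animals, beside 52.0% of all genes tested. By the same count 29 of the 34 (85.3%) were higher in virgins than in bonded animals, beside 52.3%, and 27 (79.4%) were higher in virgins than in bond-disrupted animals, beside 51.7%. Most of these genes vary together across the same animals, so the counts do not rest on independent observations. Across animals, 26 of the 32 genes that averaged 1 FPKM or more had r above 0.5 with the T cell genes (median 0.811), led by Cd6 (0.936), which lies next to Cd5 in the annotation, and also Ptprc (0.927) and Lcp2 (0.921). The lowest of the list was Plcg1 at −0.13, and the receptor genes Cd8b (0.498) and Pdcd1 (0.377) were also under 0.5.

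Genes of T cell subsets and lineages were tested for 22 of 24, with 0 called. At an unadjusted p under 0.05, 0 of 22 were higher in bond-disrupted than in bonded animals (background 2.84%), 2 of 22 (9.09%) in virgins than in bonded animals (background 2.09%) and 1 of 22 (4.55%) in virgins than in bond-disrupted animals (background 2.21%), and 0 were lower in any comparison. By direction alone 8 (36.4%), 15 (68.2%) and 17 (77.3%) of 22 were higher, in that order, beside 52.0%, 52.3% and 51.7% of all genes tested. Many of these genes vary together across animals too, so the counts are not independent observations. The lymphoid homing receptor Ccr7 averaged 19.1 FPKM in virgins and 10.9 in bonded animals (log2 difference 0.71 ± 0.29 (SE), unadjusted p 0.0271, limma adjusted p 1), and the transcription factor Lef1 averaged 12.7 FPKM in virgins, compared with 8.27 in the bond-disrupted group (0.54 ± 0.25, unadjusted p 0.0456, limma adjusted p 0.944). Both differences leaned on V4, at 36.7 FPKM of Ccr7 and 23.0 of Lef1, and without it the virgin means were 14.7 and 10.1 FPKM and the log2 differences 0.46 and 0.31. Zbtb16, a transcription factor of innate-like lymphocytes that other cells use too, had the lowest unadjusted p between bond-disrupted and bonded animals (14.7 against 5.99 FPKM, 0.72 ± 0.44, p 0.124, limma adjusted p 0.869). The mean rested on 1 animal: BD2, the lowest in T cell genes, had 52.3 FPKM of Zbtb16, and without it the mean of the bond-disrupted animals was 7.12. The median log2 difference of the list was −0.04, 0.04 and 0.09 in the same order of comparisons. With the T cell genes, 14 of 18 subset genes had r above 0.5, from Il2rb at 0.926 to Zbtb16 at −0.565. Foxp3, the regulator of regulatory T cells, was under 0.5 FPKM in every animal and not tested.

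Partners of the T cell receptors on other cells were tested for 9 of 10 genes, with 0 called. They include Cd80 and Cd86, bound by Cd28, and Cd48, bound by Cd2. By limma the lowest unadjusted p values were those of Cd274 between bond-disrupted and bonded animals (11.0 against 8.91 FPKM, p 0.284), Il16 between virgin and bonded animals (7.91 against 6.45, p 0.187) and B2m between virgin and bond-disrupted animals (1220 against 1410, p 0.0506). The median log2 differences were 0.05, −0.07 and −0.09. Il16, a ligand of Cd4, had r = 0.933 with the T cell genes, and 7 of the 9 were above 0.5. In bulk lung the cells that made these transcripts cannot be told, and T cells may be among them.

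Markers of other cells moved with the T cell genes between animals to different degrees. All 7 B cell markers tested had r above 0.5 (median 0.788), as did 6 of 8 of macrophages and monocytes (median 0.664) and 3 of 5 of dendritic cells (median 0.579). The shares were 2 of 5 for natural killer and cytotoxic cells (median 0.426) and 1 of 3 for neutrophils (median 0.494), while 0 of 9 lung tissue markers (median −0.184), 0 of 4 of lymph node stroma (median −0.374) and 0 of 2 of thymus (median −0.195) passed 0.5. The part of these cells in the T cell levels was not tested. The summed level of 7 B cell markers ran from 21.3 to 78.6 FPKM in bonded, 14.8 to 112 in bond-disrupted and 39.2 to 106 in virgin animals. Of 10 thymus markers, 7 were under 1 FPKM in every animal (Rag1, Rag2, Dntt, Ptcra, Foxn1, Psmb11 and Aire, at most 0.545 FPKM). Ccl25 reached 1.05 and Prss16 3.43 FPKM, and Cd1d, which cells outside the thymus use too, had 100 to 159 FPKM. The summed level of the 10 was 109 to 152 FPKM in bonded, 102 to 163 in bond-disrupted and 108 to 156 in virgin animals. Of the lymph node chemokines, Cxcl13 averaged 3.55, 7.18 and 3.37 FPKM in bonded, bond-disrupted and virgin animals (SD 3.11, 2.83 and 3.53). In the same order Ccl19 averaged 0.687, 1.06 and 0.439 FPKM and the more abundant Ccl21 216, 189 and 175 FPKM. The summed level of 7 lymph node stroma markers had medians of 241, 227 and 175 FPKM.

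**Figure D5:**
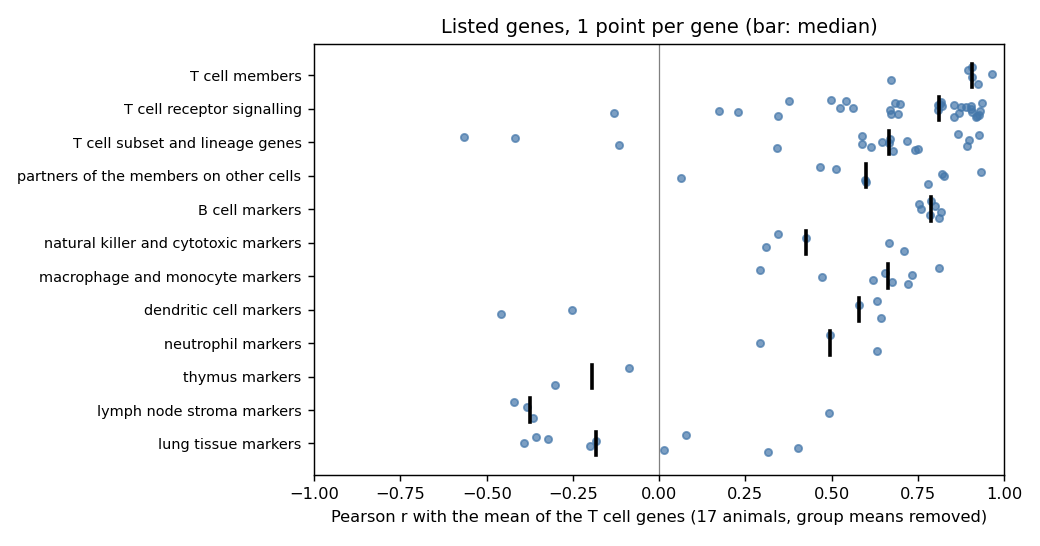
Pearson r of each listed gene with the mean of the T cell genes over 17 animals, with group means removed (points), and the median of each list (bars). For the T cell genes themselves r is with the mean of the other 5. T cell signalling and B cell genes lie to the right, and lung tissue genes run from −0.391 (Scgb1a1) to 0.402 (Sftpd).

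None of the other lists held a called gene. Lowest by limma among B cell markers were Blk between bond-disrupted and bonded animals (unadjusted p 0.426), Pax5 between virgin and bonded (0.273) and Fcrla between virgin and bond-disrupted animals (0.248), with list medians of −0.12, 0.28 and 0.28. For natural killer and cytotoxic genes these were Prf1, the pore protein perforin (0.163), and Eomes, a transcription factor, in both virgin comparisons (0.0685 and 0.0265), with medians of −0.16, 0.18 and 0.34. Macrophage and monocyte markers had Msr1 (0.158) and Mrc1 in both virgin comparisons (0.243 and 0.0896), with medians of 0.10, 0.01 and −0.06. Dendritic cell markers had Zbtb46 (0.283), Clec9a (0.114) and Zbtb46 (0.254), with medians of −0.07, −0.12 and −0.09. All of these p values are limma's.

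For neutrophils the genes with the lowest unadjusted p by limma were Cxcr2 (0.682) and, in both virgin comparisons, Ltf (0.490 and 0.323), with list medians of −0.06, 0.06 and 0.12. For the thymus they were Ccl25 (0.348), Prss16 (0.193) and Ccl25 (0.215), with medians of −0.08, 0.00 and −0.03. For lymph node stroma they were Cxcl13 (0.0752), Ccl21 (0.373) and Cxcl13 (0.0358), with medians of 0.08, −0.13 and −0.17. For lung tissue they were the surfactant gene Sftpb, at 2310 FPKM in bonded, 3110 in bond-disrupted and 3050 in virgin animals (0.00614 and 0.0143 against bonded, limma adjusted p 0.813 and 1), and Hopx (0.240), with medians of 0.17, 0.09 and −0.01.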

How the data were processed

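The authors deposited FPKM for 27786 genes and 17 animals, 0 columns being left over. Libraries were strand-specific, and the submitters' processing notes name Trim Galore 0.4.5, FastQC, STAR 2.7.2, SAMtools 1.5 and featureCounts of Subread 1.5.3. The genome build is not given in the sources used here. All 27786 symbols matched RefSeq (ASM782708v3). It was used for names and neighbours, and its lengths of small nuclear and nucleolar RNA genes anchored the recovery of depths and lengths.

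In column j each value had been divided by the length of the gene j rows above. Depths, lengths and reads were solved together so that reads are whole or shared between overlapping genes. Of 27787 lengths, 26139 were solved, 1175 estimated and 473 not settled, and 24870 genes had all 17 values. Of the values, 81.5% were whole reads, 17.1% ended in 0.5 of a read and 1.34% were neither (tolerance 0.012). The smallest step was taken as 0.5 of a read: with it as 1 read, 264 values ended in 0.34 or 0.66, which are 0.67 and 0.33 of a read doubled, and 0 ended in 0.33 or 0.67. Another step would rescale depths and reads, not FPKM. Depth was 15.4 to 34.1 in units of 1000000 reads, which leaves counting error in low genes such as Cd28.

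Genes that reached 1 FPKM in any animal were fitted as log2(FPKM + 1) with limma 3.58.1 in R 4.3.3, 3 groups in one fit, two-sided, with Benjamini-Hochberg adjustment. Correlations used 100000 permutations (Python 3.11.15, scipy 1.17.1, numpy 2.4.6, numba 0.67.0, pandas 2.3.3, matplotlib 3.10.9). The steps were tested on simulated data. The members and the lists of signalling, subset, partner and cell type genes were chosen with earlier results of these data known. Named are the 9 T cell genes, the gene with the lowest p of each list in each comparison, any called gene, and the 5 genes most like the T cell genes; some results of the signalling and subset lists are not reported here. Ranges and extremes of lists were named after their values were seen. Alternatives were another pseudocount or filter, a trend, 2 groups only, median-ratio factors, voom on recovered reads, additive removal of the shift, an adjusted p under 0.05, the deposited FPKM, the family block and leaving out each animal.

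The animals' numbers mark families in the study, which pairs them by design. Of 16 pairs of relatives, 7 had deviations from group means that correlated above 0.1 (range −0.332 to 0.414), with a mean r of 0.063 beside −0.012 for other pairs.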

Additional observations from a re-analysis of the deposited data

How the results depend on the processing

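With FPKM as deposited, limma called 40 genes between bond-disrupted and bonded, 113 between virgin and bonded and 35 between virgin and bond-disrupted animals, against 0 with own lengths; there the divisor differs between columns. On those values log2 differences turned to 1.11 for Cd4, 0.89 for Cd8a, −1.34 for Lck and 0.30 for Cd5 between bond-disrupted and bonded animals and to −1.06 for Lck between virgin and bonded animals, and Cd5 was called there at 1.78. The paired fit with the family number as a block called 0 genes in each comparison and changed no call of a T cell gene. A pseudocount of 0.1, no filter, a mean of at least 1 FPKM, a trend, 2 groups only, median-ratio factors, voom, additive removal of the shift, an adjusted p under 0.05 and leaving out any animal called 0 as well.

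Differences near 0 between bond-disrupted and bonded animals changed sign: Cd28 to −0.01 with a pseudocount of 0.1 and −0.088 with voom, Lck to −0.075 with voom and −0.015 with additive removal, and Cd4 to 0.014 with additive removal. Leaving out 1 animal at a time, they ran from −0.20 to 0.21 for Cd4, −0.17 to 0.14 for Cd28, −0.14 to 0.18 for Lck, −0.34 to 0.06 for Cd2 and −0.33 to 0.06 for Cd5. Between virgin and bonded animals Cd5 ran from −0.076, without V4, to 0.37. That difference, 0.136 in the main fit, was 0.011 with voom, 0.058 with the family block and 0.075 with additive removal. The virgin and bond-disrupted difference was above 0 for the 6 genes under all of these alternatives. Counting error is largest for Cd28, at 16 to 120 reads per animal.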

Other observations

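Some listed genes outside the T cell genes had wider ranges between animals, and were picked out after their values were seen. Pdcd1, an inhibitory receptor of T cells, ranged from 0.578 to 13.3 FPKM (median 4.63) and had r = 0.377 with the T cell genes over 17 animals. Zbtb16 ranged from 2.82 to 52.3 FPKM (median 6.13), the highest value being that of BD2. The lowest r of all 13305 genes was that of Rab34, a small GTPase, at −0.888. All points share the libraries and their scaling.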
